A study of Homo sapiens with 18 samples.

Results

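The genes described here are those of translesion synthesis and DNA damage tolerance, and they were taken from the count table by symbol: POLH, POLI, POLK, REV1, REV3L, MAD2L2, POLQ, RAD18, HLTF and SHPRH. All 10 have a row among the 23622 genes of the table, and all 10 passed the filter on low counts that left 15760 genes for testing. All are protein-coding genes, and GENCODE 44 on GRCh38 places the Y-family polymerases POLH at chr6:43576185-43620523, POLI at chr18:54269517-54321266 and POLK at chr5:75511845-75609991 on the plus strand and REV1 at chr2:99400475-99490035 on the minus strand. The others lie on the minus strand, with REV3L at chr6:111299028-111483715, MAD2L2 at chr1:11658918-11691811, POLQ at chr3:121431431-121545988, RAD18 at chr3:8775402-8963773, HLTF at chr3:149030127-149086554 and SHPRH at chr6:145864245-145964423. The RNA was measured in A2780, a cisplatin-sensitive ovarian carcinoma line, and in A2780cis, its cisplatin-resistant derivative, which is called Acis below. Both lines were left untreated or were given 200 µM cisplatin for 3 h, so the 4 groups are A2780 control, A2780 cisplatin, Acis control and Acis cisplatin, each with 3 RNA-seq libraries from wells seeded in triplicate. The same 4 conditions have 1 list of open chromatin peaks each, from ATAC-seq. Acis cells are kept resistant in culture by 1 µM cisplatin every 3 passages, so the untreated Acis group also has earlier contact with the drug. A single resistant line was compared with a single parental line, and a difference between them cannot be told apart from any other difference that the lines acquired in culture.

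Cisplatin binds mainly to neighbouring guanines, and the crosslinks block the replicative polymerases. Damage tolerance lets replication finish without removing the lesion: RAD18 attaches a single ubiquitin to the sliding clamp PCNA, which recruits the low-fidelity Y-family polymerases (POLH, POLI, POLK and REV1) to insert a base opposite the lesion, and polymerase zeta (catalytic subunit REV3L, accessory subunit MAD2L2, also called REV7) extends from it. HLTF and SHPRH lengthen the ubiquitin on PCNA into a chain that favours template switching, and POLQ joins broken ends through short stretches of homology. Loss of REV1, REV3L or MAD2L2 is known to sensitize cells to cisplatin.

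Library totals ran from 4130644 to 5072216 counts, and the 10 genes held 202 to 932 counts per library against a median of 162 for a tested gene, so the counting error of a single value was 3.28 to 7.04%. Values below are normalized counts, which are the counts scaled to a mean library of 4572775 reads, so a change is relative to the rest of the library. Fewer expressing cells and less RNA per cell cannot be told apart in such bulk samples. Replicates of a group differed by about as much as counting alone gives, and 6 pairs of libraries differed by less. They were kept as separate replicates, and p-values measure only the spread between wells. Of 8 epithelial and ovarian carcinoma markers, the table has rows for EPCAM, KRT8 and KRT18 and none for KRT19, CDH1, PAX8, WT1 and MUC16, and EPCAM stayed at or below 5.81 normalized counts in every library. The summed level of the 3 was 34.6 to 63.7 in A2780 and 135 to 158 in Acis libraries. KRT18 alone was higher in Acis, at 18.3 to 39.7 in A2780 and 132 to 150 in Acis libraries, while KRT8 was lower there (11.6 to 24.4 in A2780, 1.97 to 7.85 in Acis libraries), as was EPCAM, at no more than 1.14 in Acis. The fibroblast markers COL1A1, DCN and LUM, all present, summed to 646 to 963 in A2780 and 11.7 to 27.7 in Acis libraries. These sums move with the line, and their part in the differences between the lines was not tested. Of the leukocyte, endothelial and erythroid markers, only CD14 and HBA1 have a row, at no more than 3.87.

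Promoter sequence is shown for 4 of the genes, because the chromatin data bear on it. The part of the window inside a listed peak differed between the 4 lists for REV3L and REV1, while POLQ and HLTF had a peak over their start in all 4. Each line gives the 250 bases before the RefSeq start on the GRCh38.p14 build, 5′ to 3′ on the minus strand that carries each gene, at chr6:111483219-111483468 for REV3L, chr2:99490018-99490267 for REV1, chr3:121545989-121546238 for POLQ and chr3:149086534-149086783 for HLTF. Capitals mark matches, on either strand, to the motifs named after the sequences. In REV1 an E box runs directly into a GC box.
REV3L: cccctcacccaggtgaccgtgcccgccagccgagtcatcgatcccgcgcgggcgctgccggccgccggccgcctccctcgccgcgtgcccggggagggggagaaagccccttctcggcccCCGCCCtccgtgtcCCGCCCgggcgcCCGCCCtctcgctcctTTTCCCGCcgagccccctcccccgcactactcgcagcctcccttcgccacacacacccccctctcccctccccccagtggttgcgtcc
REV1: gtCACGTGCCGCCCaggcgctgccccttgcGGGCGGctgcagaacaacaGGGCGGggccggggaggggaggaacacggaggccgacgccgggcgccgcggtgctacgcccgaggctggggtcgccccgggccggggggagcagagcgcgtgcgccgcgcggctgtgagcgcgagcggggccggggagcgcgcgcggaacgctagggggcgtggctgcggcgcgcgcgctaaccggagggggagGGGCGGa
POLQ: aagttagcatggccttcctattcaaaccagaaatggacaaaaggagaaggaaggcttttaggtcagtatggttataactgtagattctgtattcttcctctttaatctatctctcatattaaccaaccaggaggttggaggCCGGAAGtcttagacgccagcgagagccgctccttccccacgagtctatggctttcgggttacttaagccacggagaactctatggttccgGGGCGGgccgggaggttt
HLTF: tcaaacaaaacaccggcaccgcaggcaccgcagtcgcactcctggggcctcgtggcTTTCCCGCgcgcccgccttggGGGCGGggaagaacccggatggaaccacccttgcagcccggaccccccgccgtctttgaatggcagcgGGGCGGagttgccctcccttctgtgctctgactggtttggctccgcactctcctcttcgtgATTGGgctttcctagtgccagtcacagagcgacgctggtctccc
The search covered both strands of the 300 bases from 250 before to 50 after the start of each gene, and of all 35116 RefSeq promoters for comparison. The GC box GGGCGG, the site of Sp1-type factors, was found in 9 of the 10 genes, all but POLI, against 45.0% of all promoters. The E2F letters TTTCCCGC, the site of factors that drive S-phase genes, were found in POLI, REV3L and HLTF, against 1.63% of all promoters. An ETS match, CCGGAAG, was present in POLI, POLQ and RAD18 (10.3% of all promoters), CCAAT in MAD2L2 and HLTF (34.6%) and the E box CACGTG in POLI and REV1 (7.26%). No member held the cAMP response element TGACGTCA (1.85% of all promoters), the AP-1 letters TGANTCA (7.71%) or TATAAA (11.5%). Some GC boxes of POLH and MAD2L2 overlap each other. The GC content of the windows went from 50.3% in POLQ to 80.7% in REV1, with a median of 58.7% over all promoters. Only POLQ and RAD18 (57.7%) were below that median. The part of GC content in the GC box matches was not tested.

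Levels of different genes can be compared only per length, as RPKM, the reads per kilobase of exon scaled to library size. HLTF was the highest of the 10 in every group, at 31.0 ± 0.965 (SD, n = 3) RPKM in A2780 control libraries, and POLK was the lowest at 3.86 ± 0.0807. Between them in that group came POLQ at 16.4, RAD18 at 15.6, REV1 at 14.0, REV3L at 10.3, MAD2L2 at 8.37, POLH at 7.81, POLI at 7.18 and SHPRH at 5.10, and no neighbours in this order overlapped between libraries. After cisplatin, REV3L moved from the fifth to the eighth place in A2780, at 5.92 ± 0.325 RPKM, below MAD2L2 at 10.4, POLH at 7.45 and POLI at 6.80. In that group POLQ and MAD2L2 overlapped, as did POLH and POLI. Acis cisplatin libraries kept REV3L at 11.4 RPKM, where its values overlapped those of MAD2L2 at 11.5, which in turn overlapped those of REV1 at 11.6. In Acis control libraries POLQ overlapped RAD18 and REV1 overlapped REV3L. The order depends on the length used: per length of the longest transcript, REV1 rose to 23.0 RPKM in A2780 control, above RAD18 at 18.6 and POLQ at 17.2, and MAD2L2 to 13.7, above REV3L at 11.7.

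The first question was how 3 h of cisplatin moved these genes in the sensitive line. In A2780, REV3L, SHPRH, REV1, POLK, POLQ, HLTF and RAD18 fell and MAD2L2 rose, at an adjusted p under 0.05 in edgeR's quasi-likelihood test. These are 8 of 10 called, where 49.5% of all tested genes were called in either direction. By direction it is 7 of 10 lower, where 28.2% of all tested genes were lower, and 1 of 10 higher, where 21.2% were higher. The split over all genes depends on the scaling: 3347 were higher and 4451 lower with TMM, and 5302 higher and 3060 lower with total counts as the scale, under which 7 of the 10 members passed. The median log2 fold change of the 10 was -0.48, against -0.01 over all tested genes. The cisplatin libraries lay wholly below the control libraries for 8 of the genes (31.1% of all tested genes) and wholly above for 1 (26.2%). None of the 10 reached a 2-fold change, which the study's thresholds ask for and 5.62% of tested genes met.

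In Acis the same treatment lowered REV1, POLQ, REV3L, POLK and SHPRH and raised POLI. Of the 10, 6 were called, against 21.8% of tested genes in either direction. By direction 5 of 10 were lower, where 12.4% of tested genes were lower, and 1 of 10 higher, where 9.35% were higher. Over all genes 1474 were higher and 1962 lower with TMM, 2346 higher and 1411 lower with total counts, and 622 higher and 1474 lower in DESeq2. With total counts 4 members passed. The median log2 fold change was -0.12, against 0.01 over all tested genes. Groups lay apart for 4 genes that were lower (17.4% of all) and 1 that was higher (16.9%), since the POLK libraries overlapped. No member reached a 2-fold change, which 2.01% of tested genes did. DESeq2, run as an alternative, called 8 members in A2780 and 4 in Acis.

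**Figure D1:**
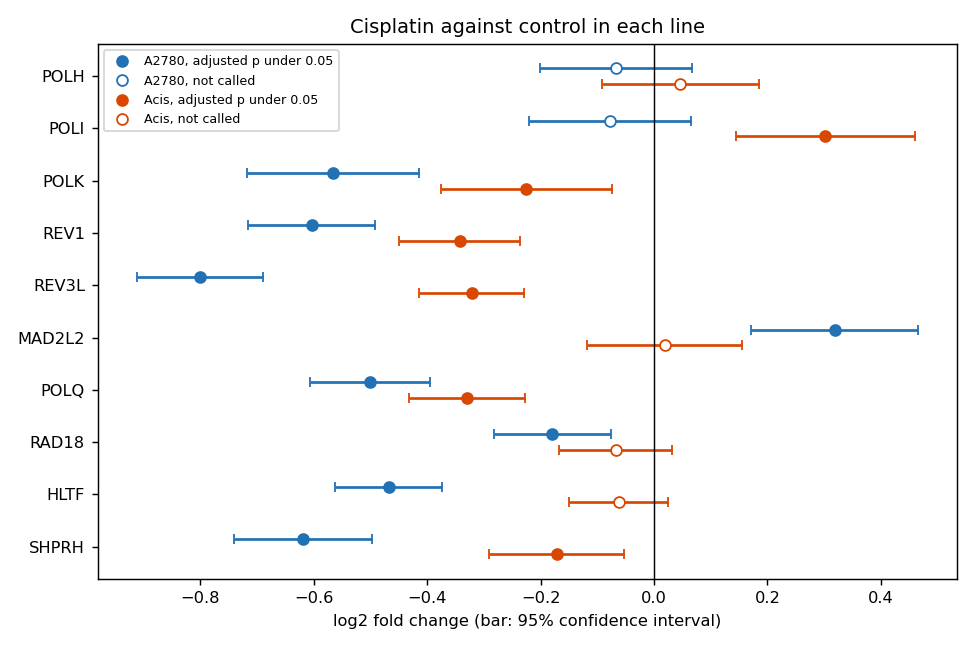
Log2 fold change of each gene after cisplatin against control (x axis, bars: 95% confidence intervals) in A2780 (blue) and Acis (orange). Filled points passed an adjusted p of 0.05 and open points did not. REV3L lies farthest left in A2780 at -0.80, and MAD2L2 in A2780 and POLI in Acis are the filled points right of 0.

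Polymerase zeta showed the widest spread. REV3L, its catalytic subunit, stood at 593, 585 and 576 normalized counts in A2780 control libraries, at 315, 344 and 350 after cisplatin, at 772, 803 and 850 in Acis control libraries and at 653, 662 and 622 after cisplatin. No pair of these groups overlapped, and the lowest Acis cisplatin library lay above the highest A2780 control library. Cisplatin lowered REV3L by 42.6% in A2780 (log2 fold change -0.80, SE 0.05, adjusted p = 2.85e-12) and 1.25-fold in Acis (-0.32, SE 0.04, adjusted p = 4.78e-06). Acis was above A2780 by 0.46 on the log2 scale without the drug (SE 0.05, adjusted p = 1.17e-09) and by 0.94 with it (SE 0.05, adjusted p = 7.46e-15), a 1.92-fold difference that was the largest of any member in any comparison.

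MAD2L2, the accessory subunit, which also serves in the shieldin complex at broken ends, held 197, 205 and 222 normalized counts in A2780 control libraries and 262, 247 and 266 after cisplatin. In Acis it held 303, 281 and 263 without and 298, 269 and 293 with the drug. The A2780 control libraries were thus the low ones, and the 2 Acis groups overlapped. Cisplatin raised MAD2L2 by 24.7% in A2780 (log2 fold change 0.32, SE 0.07, adjusted p = 0.000586), and in Acis the value was 0.02 (95% interval -0.12 to 0.16, adjusted p = 0.908). Untreated Acis cells had 36.5% more than untreated A2780 cells (log2 0.45, SE 0.07, adjusted p = 5.2e-06), and under cisplatin the difference of 0.15 did not pass (adjusted p = 0.0529), although the groups did not overlap, and it did without Acis cisplatin replicate 2 (0.20, adjusted p = 0.0198).

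The ratio of REV3L to MAD2L2 counts within a library needs no scaling between libraries. It was 3.01, 2.86 and 2.60 in A2780 control libraries, 1.20, 1.39 and 1.31 in A2780 cisplatin libraries, 2.55, 2.86 and 3.23 in Acis control libraries and 2.19, 2.47 and 2.13 in Acis cisplatin libraries. The ratio was lower in every A2780 cisplatin library than in any other library. Its mean fell by 1.52 with cisplatin in A2780 and fell by 0.616 in Acis, and both gave p = 0.1 in an exact two-sided permutation test, the smallest that 3 against 3 libraries allow. Without the drug the lines differed by 0.0538 (p = 1.0, exact permutation test). The ratio of this pair was chosen after the values were seen.

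**Figure D2:**
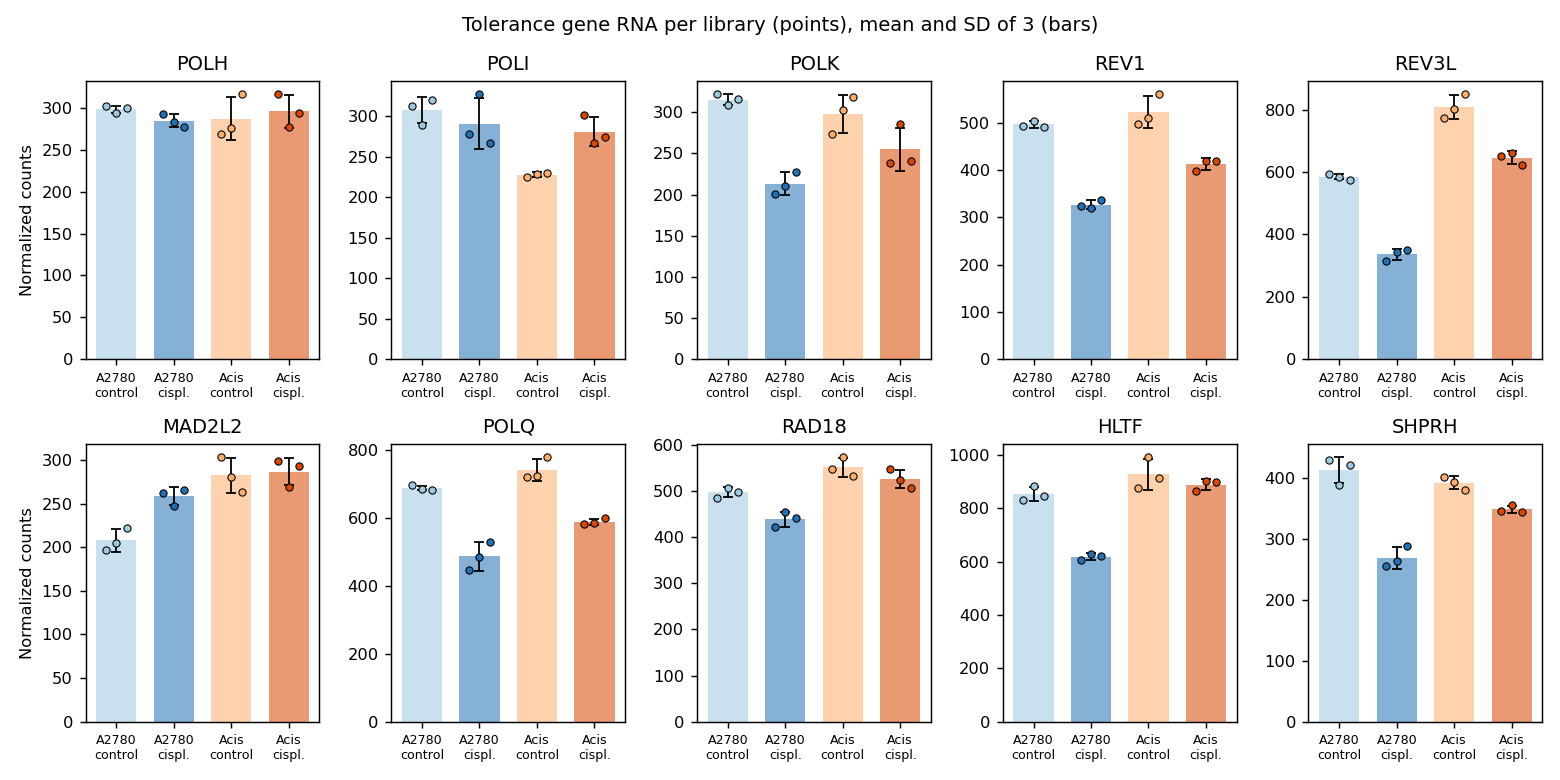
Normalized counts (y axis, from 0, a scale for each gene) of the 10 genes in the 4 groups. Points are single libraries, bars the mean of 3 and whiskers the SD. For REV3L the A2780 cisplatin libraries lie between 315 and 350 and all others above 576, while MAD2L2 has its lowest values in A2780 control.

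Among the Y-family polymerases, REV1 and POLK fell in both lines, POLI rose in Acis and POLH passed no test. REV1, a deoxycytidyl transferase that also serves as the scaffold for the other polymerases, stood at 493, 505 and 492 normalized counts in A2780 control and 324, 319 and 337 in A2780 cisplatin libraries. Acis libraries had 498, 511 and 560 without and 397, 418 and 420 with cisplatin. All treated libraries were below all untreated ones, and the 2 control groups overlapped. REV1 fell by 34.2% in A2780 (log2 fold change -0.60, SE 0.05, adjusted p = 5.95e-10) and by 21.2% in Acis (-0.34, SE 0.05, adjusted p = 1.6e-05). The untreated lines differed by 0.07 (95% interval -0.03 to 0.18, adjusted p = 0.243), and under cisplatin Acis was higher by 0.33 (SE 0.06, adjusted p = 9.95e-06).

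POLK, which bypasses bulky adducts and extends mismatched ends, held 322, 309 and 316 normalized counts in A2780 control and 201, 211 and 228 in A2780 cisplatin libraries. Acis had 274, 302 and 319 without and 239, 285 and 241 with the drug. The A2780 groups lay apart and the Acis groups overlapped through cisplatin replicate 2. POLK fell by 32.5% in A2780 (log2 fold change -0.57, SE 0.07, adjusted p = 3.74e-07) and fell by 14.4% in Acis (-0.23, SE 0.07, adjusted p = 0.0272). The Acis call was lost without Acis control replicate 2 or 3 or Acis cisplatin replicate 1 or 3, with adjusted p of 0.0781 to 0.148, in DESeq2 (adjusted p = 0.0897), with total counts (-0.17, adjusted p = 0.0987) and with the 2 Acis groups fitted alone (adjusted p = 0.0543). Under cisplatin POLK was higher in Acis by 0.26 (SE 0.08, adjusted p = 0.00491), but without Acis cisplatin replicate 2 the difference was 0.18 (adjusted p = 0.0649).

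POLI, an error-prone inserter, was the only member called lower in untreated Acis cells. It held 312, 289 and 320 normalized counts in A2780 control, 278, 327 and 267 in A2780 cisplatin, 225, 229 and 230 in Acis control and 301, 267 and 275 in Acis cisplatin libraries. The Acis control libraries lay below all others. POLI differed by -25.7% from A2780 in untreated Acis cells (log2 -0.43, SE 0.08, adjusted p = 1.94e-05) and rose by 23.3% with cisplatin there (0.30, SE 0.08, adjusted p = 0.00486). In A2780 the cisplatin value was -0.08 (95% interval -0.22 to 0.06, adjusted p = 0.374). After treatment the lines differed by -0.05 (95% interval -0.19 to 0.10, adjusted p = 0.568).

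POLH, the polymerase missing in the variant form of xeroderma pigmentosum and able to pass the cisplatin crosslink, passed the test in none of the comparisons. Its libraries held 302, 294 and 300 normalized counts in A2780 control, 293, 284 and 278 in A2780 cisplatin, 270, 277 and 317 in Acis control and 317, 278 and 295 in Acis cisplatin. The A2780 cisplatin libraries lay just below the A2780 controls, and the other groups overlapped. The log2 fold change with cisplatin was -0.07 in A2780 (95% interval -0.20 to 0.07, adjusted p = 0.428) and 0.05 in Acis (-0.09 to 0.18, adjusted p = 0.719). These intervals include 0 and reach to a fall of 0.20 in A2780 and a rise of 0.18 in Acis.

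POLQ, the end-joining polymerase, held 697, 686 and 684 normalized counts in A2780 control and 446, 485 and 531 in A2780 cisplatin libraries. Acis libraries had 722, 724 and 780 without and 582, 587 and 600 with cisplatin. In each line the treated libraries were all lower, and the 4 groups did not overlap. POLQ fell by 29.4% in A2780 (log2 fold change -0.50, SE 0.05, adjusted p = 7.2e-09) and by 20.4% in Acis (-0.33, SE 0.05, adjusted p = 1.47e-05). Acis was above A2780 under cisplatin by 0.28 (SE 0.05, adjusted p = 5.66e-05), and the untreated difference of 0.11 did not pass (adjusted p = 0.0651), though it did without A2780 cisplatin replicate 1 or 3 (adjusted p of 0.0344 and 0.0461).

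Of the ubiquitin ligases that act on PCNA, RAD18, HLTF and SHPRH all fell in A2780, and in Acis SHPRH alone passed the test. RAD18, which starts the pathway by adding the first ubiquitin, held 486, 508 and 498 normalized counts in A2780 control, 422, 454 and 442 in A2780 cisplatin, 547, 574 and 533 in Acis control and 547, 525 and 508 in Acis cisplatin libraries. All Acis libraries were at or above the highest A2780 library. RAD18 fell by 11.7% in A2780 (log2 fold change -0.18, SE 0.05, adjusted p = 0.00412), and with total counts in place of TMM scaling the value was -0.06 (adjusted p = 0.335). In Acis the value was -0.07 (95% interval -0.17 to 0.03, adjusted p = 0.391). Acis was higher by 0.15 without (SE 0.05, adjusted p = 0.00975) and by 0.26 with cisplatin (SE 0.05, adjusted p = 4.35e-05). The untreated call was lost without A2780 control replicate 1 (adjusted p = 0.075) or Acis control replicate 2 (adjusted p = 0.103), and in DESeq2 (adjusted p = 0.0751).

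HLTF, a ligase and helicase-like translocase that remodels stalled forks, held 833, 884 and 847 normalized counts in A2780 control and 605, 629 and 621 in A2780 cisplatin libraries. The Acis libraries had 877, 992 and 914 without and 865, 902 and 898 with the drug. The A2780 cisplatin libraries stood apart below all others. HLTF fell by 27.7% in A2780 (log2 fold change -0.47, SE 0.05, adjusted p = 2.9e-09), and in Acis the value was -0.06 (95% interval -0.15 to 0.03, adjusted p = 0.347). Under cisplatin Acis was higher by 0.52 (SE 0.05, adjusted p = 7.96e-11). The untreated difference of 0.12 (SE 0.04, adjusted p = 0.0203) came from overlapping groups. Its call was lost without A2780 control replicate 1 or 3 or Acis control replicate 2 (adjusted p of 0.144, 0.0928 and 0.309). It was also lost in DESeq2 (adjusted p = 0.0936) and with the closest replicates merged (adjusted p = 0.094).

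SHPRH, the other ligase of this kind, held 429, 388 and 421 normalized counts in A2780 control, 255, 263 and 289 in A2780 cisplatin, 402, 394 and 381 in Acis control and 345, 355 and 345 in Acis cisplatin libraries. Treated libraries were below untreated ones in each line, and the 2 control groups overlapped. SHPRH fell by 34.9% in A2780 (log2 fold change -0.62, SE 0.06, adjusted p = 1.95e-09) and fell by 11.2% in Acis (-0.17, SE 0.06, adjusted p = 0.0333). The Acis call was lost without Acis control replicate 1 or 2 or any 1 of the Acis cisplatin replicates, with adjusted p of 0.052 to 0.116, in DESeq2 (adjusted p = 0.136), with total counts (-0.12, adjusted p = 0.163) and with the closest replicates merged (adjusted p = 0.0581). Under cisplatin SHPRH was higher in Acis by 0.37 (SE 0.06, adjusted p = 6.51e-06).

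Between the lines without the drug, the genes moved in both directions. REV3L, MAD2L2, RAD18 and HLTF were higher in Acis and POLI lower, so 5 of 10 were called, against 58.9% of tested genes in either direction. By direction it is 4 of 10 higher against 28.2% of all tested genes and 1 of 10 lower against 30.6%. The groups did not overlap for 4 genes that were higher (30.9% of all tested genes) and 1 that was lower (33.3%). The median of the 10 was 0.09 on the log2 scale, against -0.01 over all genes. Without A2780 control replicate 1 or Acis control replicate 2, and in DESeq2, 3 members passed. Under cisplatin 7 of the 10 were higher in Acis, where 31.8% of tested genes were, and none was lower, where 31.2% were, so 7 of 10 were called against 63.0% of tested genes in either direction. POLH, POLI and MAD2L2 did not pass there. The median was 0.27, against -0.00 over all genes, and groups lay apart for 8 genes, all higher in Acis (33.4% of all tested genes). No member reached a 2-fold difference, which 19.1% of tested genes did without and 19.2% with the drug. These comparisons share their groups with those of the drug within each line, so a low A2780 cisplatin value enters both.

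**Figure D3:**
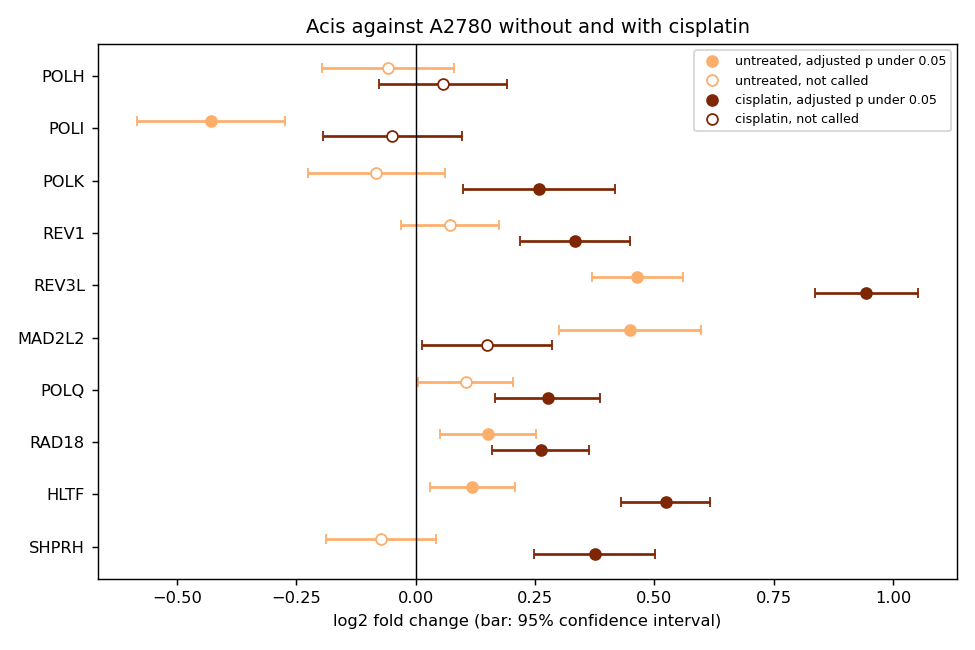
Log2 fold change of Acis against A2780 (x axis, bars: 95% confidence intervals) without the drug (light) and with cisplatin (dark). Filled points passed an adjusted p of 0.05. REV3L is at 0.46 and 0.94, and POLI is the only filled point left of 0.

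Whether cisplatin acted differently in the lines was tested as an interaction, the effect in Acis minus the effect in A2780 on the log2 scale. It passed for 7 of the 10 members, against 18.9% of tested genes. In 6 the difference was positive (13.4% of tested genes), at 0.48 (SE 0.07, adjusted p = 2.56e-05) for REV3L, 0.45 (SE 0.08, adjusted p = 0.000355) for SHPRH, 0.41 (SE 0.06, adjusted p = 4.63e-05) for HLTF, 0.38 for POLI, 0.34 for POLK and 0.26 for REV1. MAD2L2 was the 1 with a negative difference (5.48% of tested genes), at -0.30 (SE 0.10, adjusted p = 0.0322). The fall in A2780 was thus larger than in Acis for REV3L, SHPRH, HLTF, POLK and REV1. For POLQ, RAD18 and POLH the test did not pass, at 0.17 (95% interval 0.02 to 0.32), 0.11 (-0.03 to 0.25) and 0.11 (-0.08 to 0.31). None passed 1 on the log2 scale, which 1.36% of tested genes did. Over all genes the interaction was positive for 2113 and negative for 863 with TMM, and positive for 1463 and negative for 1572 with total counts, under which 5 members passed. DESeq2 called REV3L, HLTF and SHPRH. The call of POLK was lost without A2780 control replicate 1, A2780 cisplatin replicate 1, Acis control replicate 1 or Acis cisplatin replicate 2 (adjusted p of 0.0542 to 0.0986). That of MAD2L2 was lost without A2780 control replicate 1 or 2, A2780 cisplatin replicate 1 or 3, Acis control replicate 1 or 2 or Acis cisplatin replicate 2 (adjusted p of 0.0529 to 0.14). POLQ passed without A2780 cisplatin replicate 3 (adjusted p = 0.0217) or Acis control replicate 3 (adjusted p = 0.0428).

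Gene length ran along with the cisplatin effect over the whole table. In A2780 the median log2 fold change was 0.21 for genes under 10 kb, -0.15 for genes of 30 to 100 kb and -0.39 for genes of 100 to 300 kb, and 44.1% and 69.5% of the latter classes were lower. In Acis these medians were 0.09, -0.02 and -0.17, and 13.5% and 42.5% were lower. The members are all over 30 kb: MAD2L2 is the shortest at 32.9 kb, followed by POLH at 44.3, POLI at 51.8, HLTF at 56.4, REV1 at 89.6 and POLK at 98.1 kb. SHPRH, POLQ, REV3L and RAD18 are in the next class at 100, 115, 185 and 188 kb. Over the 10 genes, the log of the length and the log2 fold change had a Pearson's r of -0.694 and a Spearman's rho of -0.661 in A2780, and -0.631 and -0.624 in Acis, given as a description over genes of the same libraries. Within these classes the members spread widely in A2780. RAD18 is the longest of the 10, yet 76.9% of the genes in its class fell by more or rose by less. This share was 7.12% for REV3L, 19.6% for SHPRH and 33.7% for POLQ. In the class of 30 to 100 kb it was 5.93% for REV1, 7.05% for POLK and 11.9% for HLTF. There POLI had 61.9%, POLH 63.7% and MAD2L2 93.2%. REV1 and POLK lie near the upper limit of that class, and SHPRH at 100 kb lies just above it. The shares of REV1, POLK and SHPRH thus depend on where the classes divide. In Acis the share was 4.81% for REV1, 10.3% for POLK, 22.7% for POLQ, 23.8% for REV3L and 36.6% for HLTF. It was 50.3% for SHPRH, 59.4% for MAD2L2, 65.9% for POLH, 69.9% for RAD18 and 91.3% for POLI. The interaction was positive at an adjusted p under 0.05 for 23.4% of genes of 30 to 100 kb. It was so for 28.6% of those of 100 to 300 kb, and both shares are above that of all genes. Under cisplatin, 42.2% and 47.0% of the genes in these classes were higher in Acis than in A2780, also above the share of all genes. Lower in Acis were 26.7% and 29.5%.

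**Figure D4:**
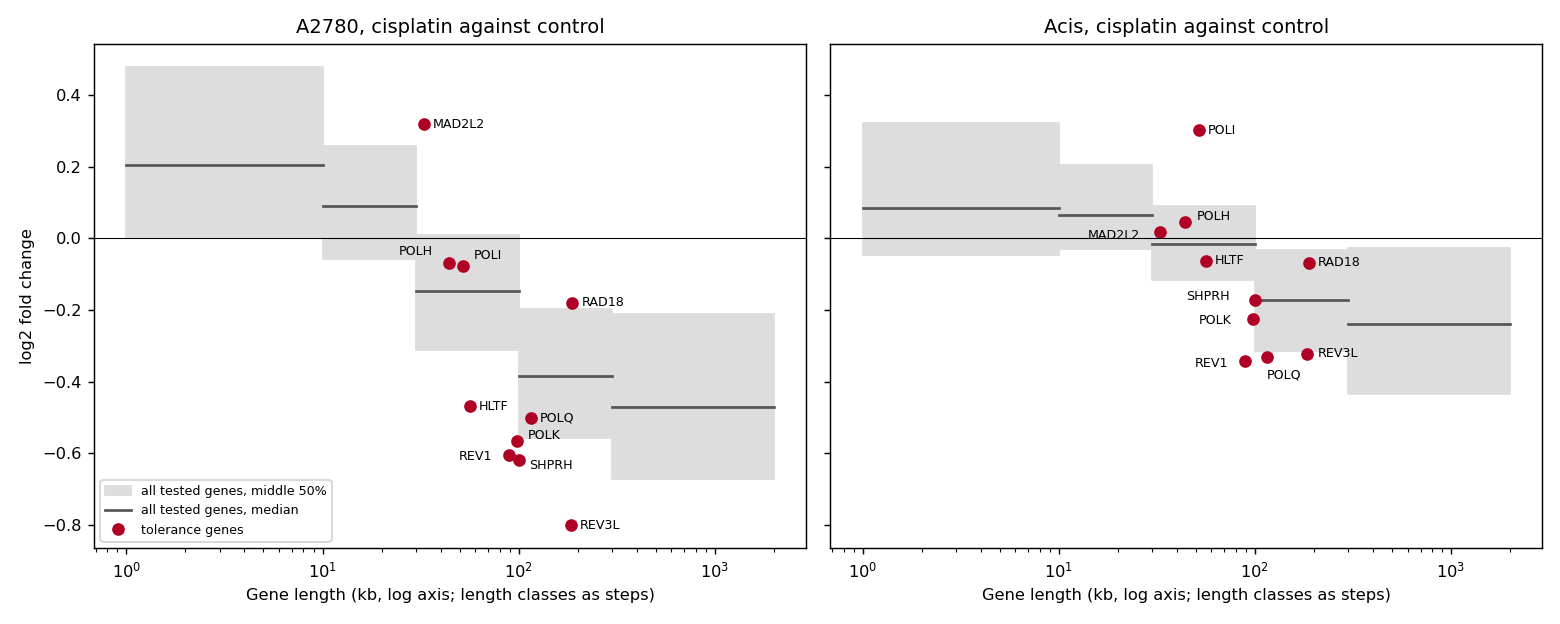
Log2 fold change after cisplatin (y axis) against gene length in kb (x axis, log scale) in A2780 (left) and Acis (right). Red points are the 10 genes, and grey steps the median and middle 50% of all tested genes in 5 length classes. REV3L at 185 kb is below its class in A2780 and RAD18 at 188 kb above it.

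Guanine pairs on the template strand, the main place of cisplatin crosslinks, numbered 7827 in REV3L, 9476 in RAD18 and 2864 in MAD2L2, against a median of 1556 over the tested genes. The other members had 2019 (POLI) to 5084 (POLQ). Per kb, MAD2L2 was the richest at 87.1 and SHPRH the poorest at 35.8, with a median of 59.6 over tested genes. All members but MAD2L2 were below that median per kb. The damage itself was not measured in the data used here.

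Open chromatin was compared at the GENCODE starts of the genes. Each condition has 1 deposited peak list, made from peaks shared between its replicates, so there is no replicate error and no test. All 10 genes had a peak within 1000 bp of the start in all 4 lists, where 73.0% and 74.5% of tested genes did in untreated and treated A2780 cells, and 66.5% and 70.8% in Acis cells. POLK had the strongest peaks, with a fold enrichment over the local background of 26.3, 20.5, 29.6 and 29.7 (A2780 without and with cisplatin, then Acis likewise), while the weakest were those of MAD2L2 in the A2780 lists, at 7.11 and 6.99, and of POLH in the Acis lists, at 9.62 and 9.05. MAD2L2 stood at 9.82 and 10.9 in the Acis lists. The A2780 cisplatin value was the lowest of the 4 for every gene except POLH, whose lowest was 8.05 in A2780 control. The median over all peaks was also lowest in A2780 cisplatin, at 8.79, against 9.96, 12.8 and 11.0 in A2780 control, Acis control and Acis cisplatin.

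At REV3L the peak had a fold enrichment of 15.5 without and 10.3 with cisplatin in A2780, and of 14.8 without and 13.9 with it in Acis. Its summit lay at -798 to -867 bp from the start used here, upstream of the first exon of longer REV3L transcripts. The antisense gene TRAF3IP2-AS1 shares 117 exon bases with REV3L, and its own start was not set against the summit. Of the 300 bases around the REV3L start, 300 were inside the listed peak in untreated and 0 in treated A2780 cells, and 10 in untreated and 8 in treated Acis cells, so most of the sequence printed above was inside a peak in 1 condition. REV1 had its summit at -481 to -491 bp from the start, with a fold enrichment of 13.7, 11.8, 12.1 and 13.6, and 151, 0, 146 and 145 of its 300 bases were covered. For this pair no peak reached within 250 bp of the start in A2780 cisplatin, and the other 8 genes had one there. MAD2L2 had 300, 99, 300 and 240 bases covered. Listed edges depend on depth and on the number of replicates, which was 3 for the controls and 2 for the treated cells, and their part in these edges was not tested. Away from the starts the gene bodies held few peaks: 2 in POLQ, 1 in REV1 and 1 in MAD2L2 in A2780 control, and 1 in POLH in Acis cisplatin.

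**Figure D5:**
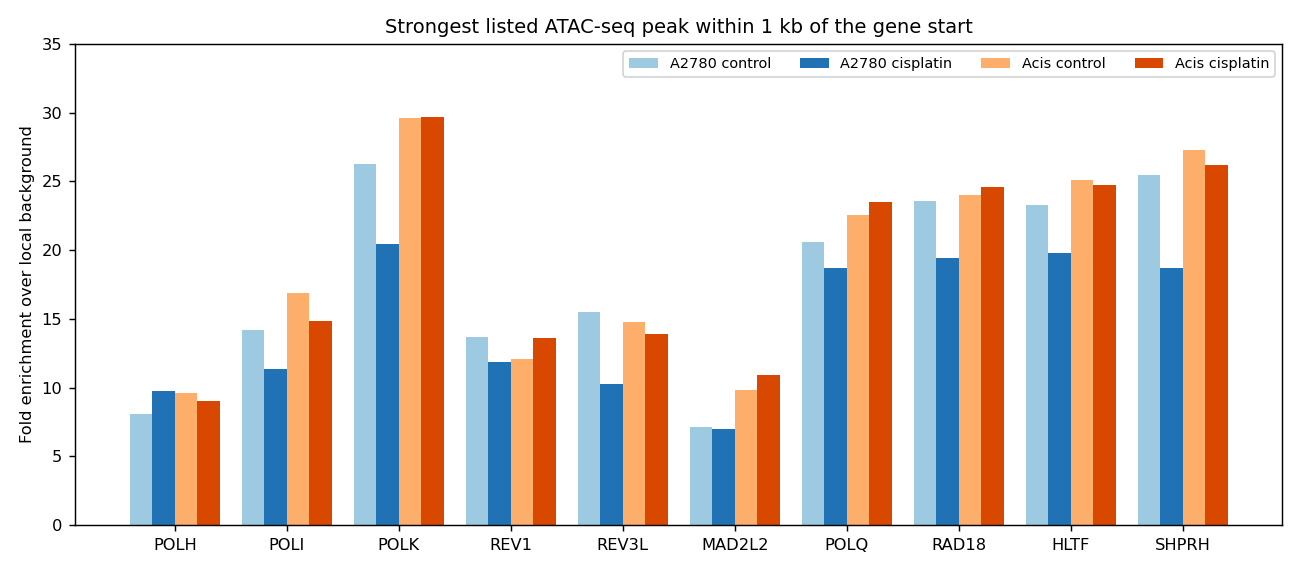
Fold enrichment over local background (y axis, from 0) of the strongest listed ATAC-seq peak within 1 kb of each gene's start in the 4 conditions, 1 list each, without error bars. The A2780 cisplatin bar is the lowest of its 4 for every gene but POLH.

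Around these genes, 35 partners of the pathway were read in 5 lists, and all 35 passed the filter. In A2780 cisplatin raised 5 and lowered 12 of the 35, beside 21.2% and 28.2% of all tested genes. In Acis it raised 2 and lowered 5, beside 9.35% and 12.4%. Without the drug Acis was higher for 6 and lower for 14, beside 28.2% and 30.6%, and under cisplatin higher for 10 and lower for 11, beside 31.8% and 31.2%. The interaction was positive for 6 and negative for 1, beside 13.4% and 5.48%. The counts of the single lists below rest on 5 to 8 genes each, and nothing particular to a list is read from them. The median log2 fold change of the 35 was -0.12 in A2780 and -0.01 in Acis.

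Among 8 genes of PCNA ubiquitination, cisplatin raised 2 and lowered 3 in A2780, where 21.2% and 28.2% of all tested genes were higher and lower. RFWD3, a ligase of the fork, fell by 0.20 on the log2 scale (adjusted p = 4.11e-05), UBE2V2, the partner of the chain-building conjugase, by 0.25 (adjusted p = 0.000995) and DTL, a substrate receptor that acts on PCNA-bound proteins, by 0.17 (adjusted p = 0.00107). The clamp PCNA itself was higher in untreated Acis than in A2780 cells, by 0.18 (adjusted p = 0.00188), and DTL lower by 0.34 (adjusted p = 1.13e-07). Of 5 genes that remove ubiquitin from PCNA or unload it, 3 fell in A2780 and none rose, beside the same 28.2% and 21.2% of all genes. ATAD5, which unloads the clamp, fell by 0.55 in A2780 (adjusted p = 3.06e-09), and USP7 and USP10, deubiquitinases, by 0.25 and 0.15. WDR48, the cofactor of USP1, was lower in Acis by 0.60 (adjusted p = 1.99e-09).

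Of 8 other polymerase genes, among them those of polymerase delta subunits, 1 rose and 1 fell in A2780, beside 21.2% and 28.2% of all tested genes. None of the 8 was called in Acis, where 21.8% of tested genes were called. The fall was that of POLD3, 0.16 on the log2 scale, and the rise that of POLD2, 0.21 (adjusted p = 0.00109), both subunits that polymerase zeta shares with polymerase delta. In untreated Acis cells POLD3 was lower than in A2780, at -0.80 (SE 0.06, adjusted p = 1.27e-12), and POLD2 higher, at 0.35 (adjusted p = 7.44e-07), while PRIMPOL, which reprimes beyond lesions, was lower, at -0.50 (adjusted p = 5.1e-05). REV3L and MAD2L2, like POLD2, were higher there. Of 7 genes of fork remodelling, the translocase ZRANB3 fell in A2780 (-0.49, adjusted p = 1.8e-05), and SMARCAL1, which reverses forks, was lower in Acis without the drug (-0.91, SE 0.06, adjusted p = 2.4e-13) and with it (-1.04). SMARCAL1 under cisplatin was the only gene of the lists past a 2-fold difference. Of 7 genes of the shieldin axis, to which MAD2L2 also belongs, RIF1 fell in A2780 (-0.59, SE 0.04, adjusted p = 4.73e-13), TP53BP1 was lower in untreated Acis cells (-0.67, SE 0.03, adjusted p = 5.55e-16) and RNF168 higher (0.25, adjusted p = 6.72e-05).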

How the data were processed

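Counts per gene in 12 RNA-seq libraries and 4 ATAC-seq peak lists were used, and the XR-seq samples were not analysed here. The authors aligned stranded reads with STAR 2.7.3, removed duplicates, counted with HTSeq 0.11.1 in reverse-stranded mode and deposited raw counts. Genes overlapping the 10 members with shared exons lie on the opposite strand. The authors called peaks with MACS2 after Bowtie2 2.4.1, and the deposited peaks carry a fold enrichment (a ratio) and −log10 p and q values. Removal of duplicates can lower the counts of highly expressed genes, and the members had at most 0.155 counts per exon base.

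Counts were fitted in R 4.3.3 with edgeR 4.0.16 (TMM scaling, default filter on low counts, 15760 genes, 1 model of the 4 groups, 8 residual degrees of freedom, common dispersion 0.000304). Its quasi-likelihood test gave 5 comparisons, with p-values adjusted by Benjamini-Hochberg over all tested genes, and calls used an adjusted p-value under 0.05, with an absolute log2 fold change of 1 as the stricter rule of the study. RPKM used the union of GENCODE 44 exons. Alternatives were DESeq2 1.42.0, other scalings and filters, the 2 compared groups alone, merged replicates, a replicate block and leaving out each library. Scripts were tested on simulated counts for the tested genes, with 100 genes drawn at random for each size of change. Of log2 changes of 0.5, 62% were recovered for A2780 cisplatin against control and 49% for the interaction. Of log2 changes of 1, 87% and 84% were recovered, and 2.61% and 4.32% of the calls were false. A gene that did not pass may thus still have changed. The exact permutation tests used scipy 1.17.1.

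Of the identifiers, 23513 are in GENCODE 44 (GRCh38). A peak counts as at a start when it overlaps any part of the window from 1000 bp before to 1000 bp after the start. Promoter sequences of all 10 members came from RefSeq (GRCh38.p14), taking the start nearest to that of GENCODE where REV3L and MAD2L2 had 2. The RefSeq start of POLI lies 57 bp from that of GENCODE.

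Members, lists and tests were chosen with earlier results of these data known. By rule, all 10 members are named, and of each pathway list at most 3 genes with the smallest adjusted p-value in A2780 cisplatin against control and in Acis control against A2780 control.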

Additional observations from a re-analysis of the deposited data

Results flagged for a closer look

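The effect of cisplatin differed between the lines for 7 of the 10 genes by the interaction test in edgeR (adjusted p under 0.05), where 18.9% of all tested genes passed, and each is given as the log2 fold change in Acis minus that in A2780. The difference was 0.48 for REV3L, 0.45 for SHPRH and 0.41 for HLTF, with adjusted p of 2.56e-05, 0.000355 and 4.63e-05. It was 0.38 for POLI (adjusted p = 0.0106), 0.34 for POLK (adjusted p = 0.0219) and 0.26 for REV1 (adjusted p = 0.0153). For MAD2L2 it was -0.30 (adjusted p = 0.0322). DESeq2 called REV3L, SHPRH and HLTF, and of 19 alternatives MAD2L2 lost its call in 10, POLK in 6, REV1 in 2 and POLI in 1. With 3 libraries in each group, single libraries were not tested as outliers.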

How the results depend on the processing

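Each value of the 10 genes was recomputed under 20 alternatives, or 19 for the interaction. Over all of them, 932 values kept their direction and their side of the threshold, 44 kept the direction and lost the call, 7 gained it and 7 changed sign. All sign changes were in values that passed no test: with total counts as the scale, the cisplatin effect in A2780 was 0.0495 for POLH and 0.0393 for POLI. Without single libraries, POLI between the treated lines ranged from -0.103 to 0.0446 (above 0 without A2780 cisplatin replicate 2), POLH in Acis from -0.00587 to 0.115 (below 0 without Acis control replicate 1 or Acis cisplatin replicate 1) and MAD2L2 in Acis from -0.0306 to 0.072 (below 0 without Acis control replicate 3 or Acis cisplatin replicate 1). Total counts put the median of all genes at 0.10 in A2780 and 0.07 in Acis, where TMM put it at -0.01 and 0.01. DESeq2 called 3 members between the untreated lines and 3 for the interaction, where edgeR called 5 and 7. Each member that lost its call there kept its direction, with a larger SE in DESeq2. For RAD18 between the untreated lines, edgeR gave 0.15 (SE 0.05) and DESeq2 0.15 (SE 0.07). For the interaction of POLI they gave 0.38 (SE 0.10) and 0.36 (SE 0.14). Why the SE differed was not tested. Leaving out single libraries gave 8 members in A2780 every time, 4 to 6 in Acis, 3 to 6 between the untreated lines, 7 between the treated lines and 5 to 8 for the interaction. The interaction of MAD2L2 lost its call in 10 alternatives, that of POLK in 6, REV1 in 2 and POLI in 1. REV3L, HLTF and SHPRH kept theirs in all 19. With the group mean of each gene taken off, same-numbered libraries of different groups correlated at -0.205 to 0.282. Of 12 libraries, 6 correlated best with their own number, which does not settle whether replicate numbers pair the samples. With a replicate block 8, 6, 6, 7 and 7 members were called in the 5 comparisons, and POLQ between the untreated lines passed (adjusted p = 0.0496). The count of genes with a promoter peak was 8 in A2780 cisplatin within 250 bp and 10 under all other settings. Counts limit a single value to an error of 3.28 to 7.04%.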

Other observations

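For each gene, the 2 genes with the most similar pattern over the 4 group means were sought among 8317 genes with at least 100 normalized counts in every group, by the root mean square difference of centred log2 means. For REV3L they were CD2AP, with a difference of 0.0256, and MYO9A, with 0.0402. REV1 was nearest to NRIP1 (0.00986), HLTF to ANKRD18B (0.00722) and USP15 (0.00776), MAD2L2 to TRIP10 (0.00609), POLK to GLG1 (0.00614) and RAD18 to SON (0.00859). The nearest gene to SHPRH was MKLN1 (0.0129), to POLQ RFX1 (0.0143), to POLI SLC35G1 (0.0227) and to POLH NAE1 (0.00219). REV3L had no gene as close as those of the other members. With 4 group means, a pattern has few points, and the likeness is a description.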
